A study of Mus musculus with 8 samples.

Results

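Untreated IEC10 cells were described here by the signal of their transcripts on 2 arrays, control replicates 2 and 3, which were chosen as the arrays labelled with no stimulus and are 2 of the 8 arrays analysed here. IEC10 is an immortalized intestinal epithelial cell line that was derived from a mouse carrying a firefly luciferase transgene under control of the Mx2 promoter, so that all values come from 1 line and from cells that carry this reporter. The cells of all 8 arrays were kept for 21 days on porous transwell inserts to polarize. The study compared these control cells with cells exposed for 9 h to IFN-λ2 at 20 ng/mL (3 arrays) or to IFN-β at 500 U/mL (3 arrays). Nothing in the labels says whether arrays of a group came from separate cultures, so the spread between them may be technical, and the p-values below measure no other spread. The number of arrays, 2 for the control cells, limits the precision of every value.

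The epithelium of the intestine is a single layer of polarized cells sealed by tight junctions, in which stem cells of the crypt give rise to absorptive enterocytes and to secretory goblet, Paneth, enteroendocrine and tuft cells. Type I IFN, such as IFN-β, signals through the receptor chains Ifnar1 and Ifnar2, and type III IFN, or IFN-λ, through Ifnlr1 and Il10rb. Both receptors activate factors of the Stat family, which with Irf9 switch on the IFN-stimulated genes, many of which encode antiviral proteins.

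Each array measured 39429 probes that stand for 31688 gene names. Signals are given in normalized gPS units, that is, background-subtracted intensities scaled to a 75th percentile of 1500, and a value of 15 units is the floor to which all lower signals were set. The first value of each pair given for a gene is that of control replicate 2 and the second that of control replicate 3. The scanner software flags whether a feature is well above background, and a gene was counted as detected when at least 1 of its probes carried this flag on both control arrays. By this rule 17717 gene names were detected, which is 55.9% of all names on the array, and 12351 names had no probe that was flagged on either array. The share was 50.6% among the names with a single probe and 63.0% among those listed in the reference. The flag was given to signals as low as 19.9 units on the array of replicate 2 and 15.6 units on that of replicate 3, so the number of genes with at least 150 units on both arrays, 10 times the floor, is given beside it. This level was reached by 13334 names, or 42.1%. The brightness of a spot depends on its probe, and signals of different genes are therefore not ranked here. All 15 housekeeping genes of the list were detected, although the single probe of Pgk1 was placed by the array files on chromosome 3 and the gene lies on chromosome X in the reference.

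Between the control arrays most signals differed little. Over the 22306 probes that were well above background on both, 56.6% of all probes, the difference between the arrays had a median size of 0.16 on the log2 scale, and Pearson's r across probes was 0.996. A difference of at least 2-fold was found for 219 of these probes, or 0.982%, of which 121 were higher on the array of replicate 3 and 98 on that of replicate 2. The array of replicate 2 had the brighter negative controls, with a 99th percentile of 53.5 units against 11.5 units. In all, 1479 probes were well above background on the array of replicate 3 alone and 429 on that of replicate 2 alone.

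**Figure D1:**
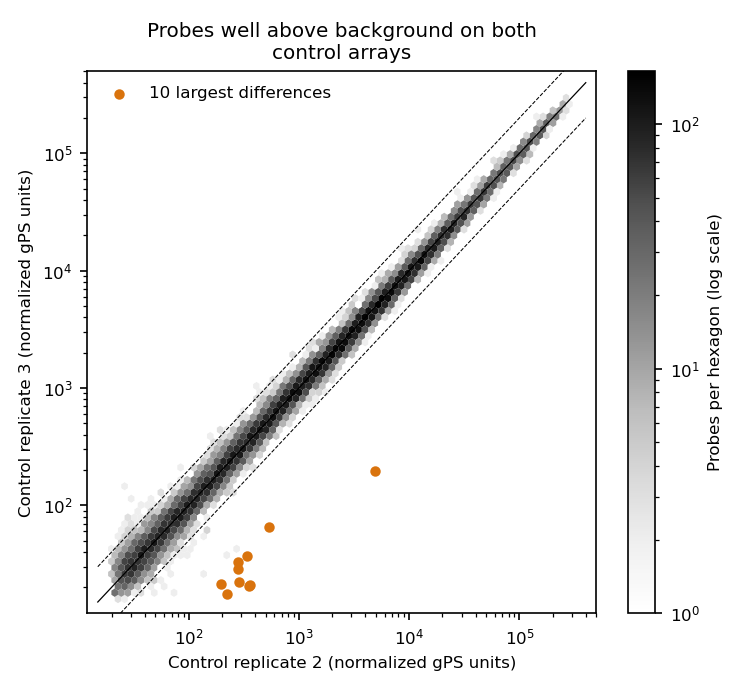
Signal of the 22306 probes well above background on both control arrays, replicate 2 on the x axis and replicate 3 on the y axis, both in normalized gPS units on log scales. Grey levels give the number of probes per hexagon, the solid line marks equal signals and the dashed lines a 2-fold difference, and the 10 probes with the largest difference (orange) all lie on the side of replicate 2.

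The share of members detected ranged over the lists of genes named below. Detection reached 24 of 24 genes of the epithelial core and 58 of 58 IFN-stimulated genes, against 2 of 11 goblet cell genes and 1 of 17 enteroendocrine genes.

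**Figure D2:**
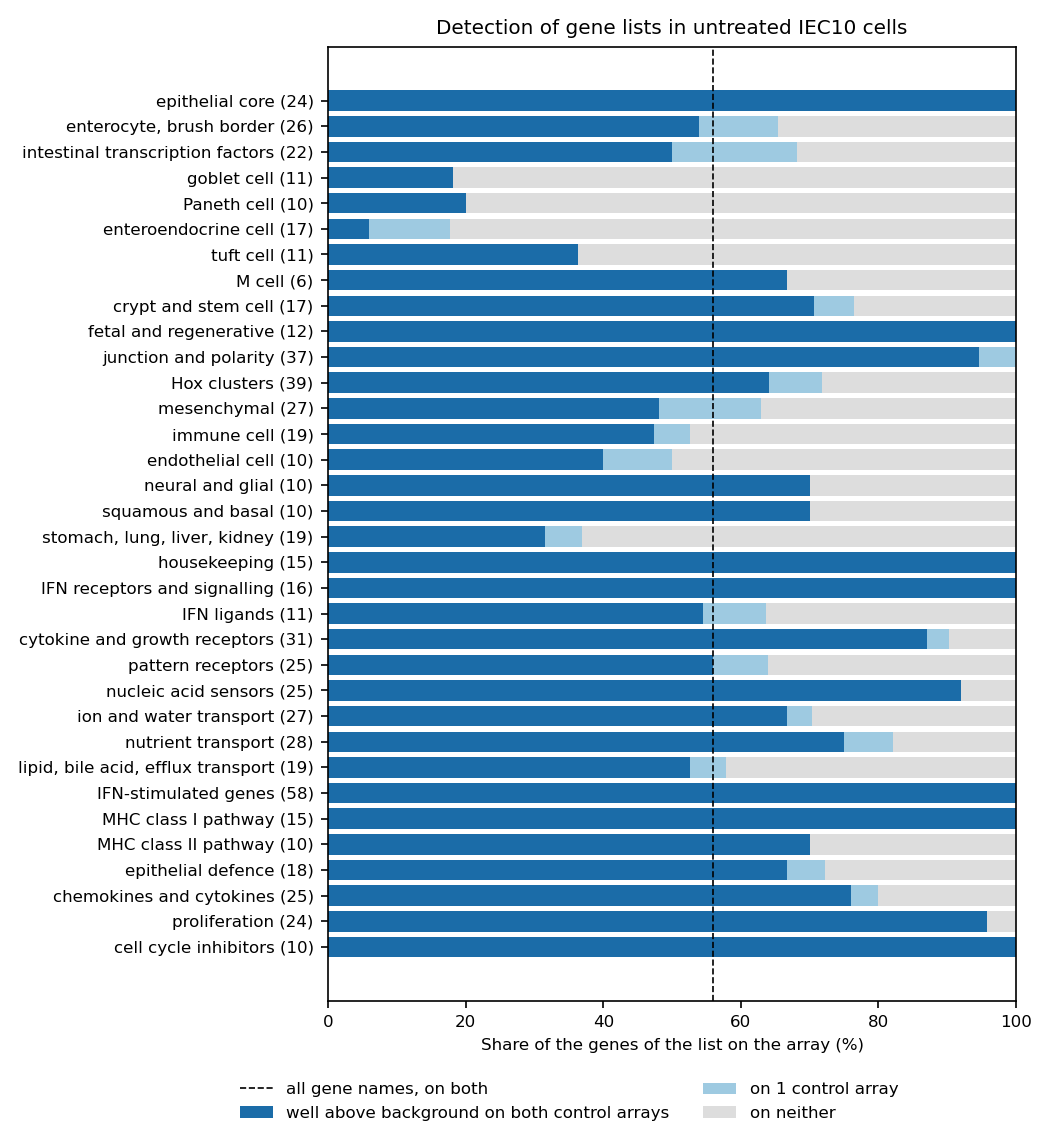
Share of the genes of each list (number on the array in parentheses) that were well above background on both control arrays (dark blue), on 1 of them (light blue) or on neither (grey). The dashed line marks the 55.9% of all gene names that were detected on both arrays, and the bars of the goblet, Paneth and enteroendocrine lists end below it.

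Transcripts shared by epithelial cells were detected throughout. All 24 genes of the epithelial core were detected and all 24 reached 150 units. The adhesion molecule Epcam measured 7161 and 6013 units and Cdh1, which encodes E-cadherin of the adherens junction, 4863 and 4408 units. Of the keratins of simple epithelia, the signal was 28394 and 33756 units for Krt8, 207956 and 200127 units for Krt18 and 16999 and 17127 units for Krt19. Krt20, the keratin of differentiated intestinal surface cells, measured 81248 and 97471 units, and Krt7, a keratin of ductal epithelia, 18270.4 and 19575 units. Between the arrays, the genes of this list differed by at most 0.40 on the log2 scale, a value reached by Cdcp1.

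Of 37 genes for cell junctions and apical-basal polarity, 35 were detected and 31 reached 150 units. The scaffold protein gene Tjp1, which encodes ZO-1, measured 14847 and 12022 units, and Ocln, a membrane protein of the tight junction, 1688 and 1379 units. Among the claudins, the strand-forming proteins of the tight junction, Cldn3 measured 51209.6 and 41654 units, Cldn7 51558 and 40502 units and Cldn4 3274 and 2986 units. Cldn2, which forms cation pores in leaky epithelia, measured 115 and 121 units on 1 probe and was at the floor on its other probe. The polarity genes Prkci (73419 and 58639), Pard3 (4118 and 4572) and Crb3 (1921 and 1468) were all detected. The exceptions were Cldn8 (15 and 25.4) and the desmosomal cadherin gene Dsc2 (15 and 67.2), which were well above background on the array of replicate 3 alone.

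Transcripts of mature enterocytes were detected for 14 of 26 genes, or 53.8%. This is close to the 55.9% of all gene names and under the 63.0% of those in the reference. Of the 26 genes, 7 reached 150 units on both arrays. Of the others, 9 digestive and absorptive genes lay at the floor on both arrays, among them Alpi, the intestinal alkaline phosphatase, Mgam and Treh, which split sugars, Fabp1, a fatty acid binding protein, and the apolipoprotein genes Apoa1, Apoa4 and Apob. Sucrase-isomaltase, Sis, measured 25.7 and 22.5 units and was well above background on 1 array. Lactase, Lct (65.2 and 51.7), aminopeptidase N, Anpep (52.1 and 49.4), Fabp2 (40.9 and 43.3) and villin, Vil1 (62.3 and 65.5), the actin bundler of the microvillus, were detected on both arrays at under 150 units. The peptidase gene Dpp4 measured 220.4 and 189 units. Genes that reached 150 units included Cdhr2, a cadherin that links microvilli (353 and 363), Mttp, which loads lipid on apolipoprotein B (1670.5 and 1429), Eps8, an actin regulator of the microvillus (2855 and 3000.4), and Ezr, which encodes the membrane linker ezrin (19326 and 15871).

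Of 22 transcription factors of the intestinal epithelium, 11 were detected, and 9 reached 150 units. The share detected was 50%, against 55.9% of all gene names and 63.0% of those in the reference. By the flag for a positive and significant signal, 17 were detected. Cdx2, which specifies intestinal identity, was at the floor on both arrays. Its relative Cdx1 measured 123 and 15 units, so that the array of replicate 2 was well above background and that of replicate 3 at the floor. The hepatocyte nuclear factor Hnf4a measured 185 and 141 units. Gata6, which is expressed along the whole intestine, measured 788 and 957 units, whereas Gata4, a factor of the proximal small intestine, measured 45.4 and 15 units and was flagged on 1 array. Klf5, a factor of proliferating crypt cells, measured 4728 and 5097 units and Sox9, found in crypt and Paneth cells, 1605 and 1171 units. Atoh1 and Neurog3, which direct secretory and enteroendocrine fate, were flagged on neither array.

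**Figure D3:**
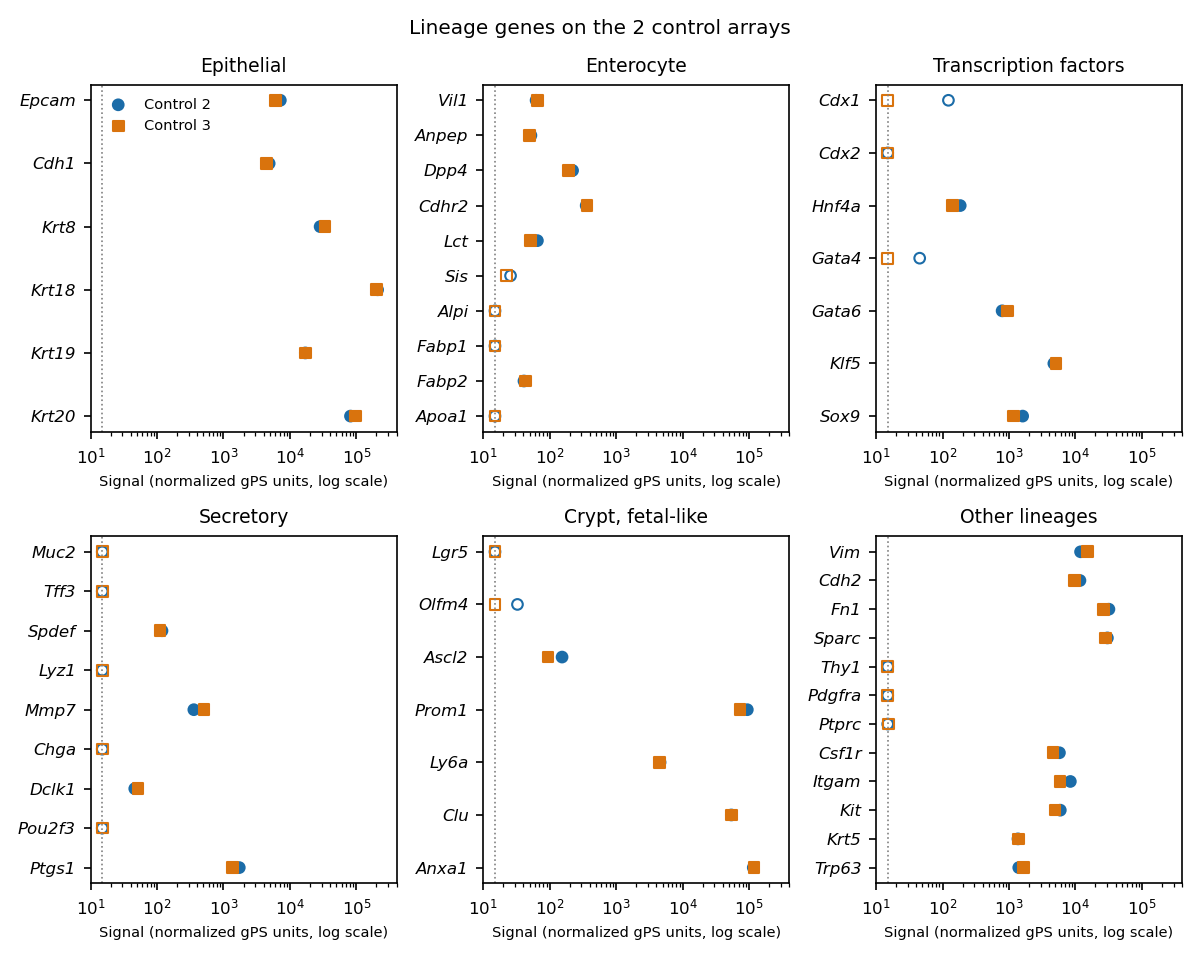
Signal of lineage genes on the control arrays of replicate 2 (blue circles) and replicate 3 (orange squares), in normalized gPS units on a log scale. Filled symbols mark genes that were well above background on both arrays, open symbols all others, and the dotted line the floor of 15 units, on which Alpi, Fabp1, Apoa1, Cdx2, Muc2, Tff3, Lyz1, Chga, Pou2f3, Lgr5, Thy1 and Pdgfra lie on both arrays.

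Markers of the secretory lineages were mostly at the floor. Of 11 goblet cell genes, 9 were at the floor on both arrays, including Muc2, which encodes the main gel-forming mucin of the intestine, and the trefoil factor Tff3. The other two were transcription factors, Spdef (119 and 111) and Creb3l1 (136 and 131). Of 10 Paneth cell genes on the array, 8 were at the floor, including Lyz1, the Paneth cell lysozyme, and the lectins Reg3b and Reg3g. The protease gene Mmp7, whose product activates defensins in Paneth cells, measured 358 and 511 units and the ribonuclease gene Ang4 43.9 and 33.6 units. The granin Chga and 13 other enteroendocrine genes of 17 were flagged on neither array, and the tachykinin precursor Tac1 (184 and 134) was the single gene of that list detected on both. This count depends on the rule and on control replicate 2. It was 3 when that array was left out, and 7 with a flag for a positive and significant signal on both arrays. By that flag, 5 goblet cell genes counted as detected. Of 11 tuft cell genes, 4 were detected, or 7 by the flag for a positive and significant signal. With a signal above the 99th percentile of the negative controls as the rule, the counts were 2 tuft and 1 Paneth cell gene. Ptgs1, or cyclooxygenase 1, measured 1728 and 1378 units, the kinase gene Dclk1 46.3 and 51.6 units on the brightest of its 4 probes and the floor value on 2 of them, and the tuft cell factor Pou2f3 was at the floor. Of the goblet, Paneth, enteroendocrine and tuft cell lists, 0, 1, 0 and 1 genes reached 150 units. In bulk RNA, a small number of cells of a type and a low amount of transcript per cell cannot be told apart.

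Genes of the crypt gave a divided picture. Of 17 crypt and stem cell genes, 12 were detected, or 70.6% against 55.9% of all gene names. The level of 150 units was reached by 10, against 42.1% of names. Lgr5, the R-spondin receptor that marks crypt base stem cells, and Smoc2 were at the floor on both arrays, as was the Wnt target Axin2, and the stem cell marker Olfm4 measured 32.7 and 15 units. Ascl2, a Wnt-dependent stem cell factor, measured 153 and 93.7 units, a difference of 0.71 on the log2 scale between the arrays. The membrane protein gene Prom1 measured 93616 and 73136 units, the receptor gene Ephb3 32698 and 29865 units and the Polycomb gene Bmi1 8112 and 7252 units.

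All 12 genes of a list of fetal and regenerative epithelium, the state the gut epithelium takes in development and after injury, were detected, and 11 reached 150 units. Ly6a, which encodes the surface protein Sca-1, measured 4563 and 4504 units and Clu, which encodes clusterin, 53774 and 54051 units. The annexin gene Anxa1 measured 115057 and 117573 units and the Yap targets Ccn1 and Ccn2 44038 and 40229 units and 64489 and 61129.5 units. The single gene under 150 units was the cytokine Il33 (66.8 and 79.3). Probes of the Ly6 family may share sequence, and the value of Ly6a is uncertain to that extent.

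Hox genes keep a record of position along the body axis. Of 39 Hox genes, 25 were detected, or 64.1% against 55.9% of all gene names and 63.0% of those in the reference. The level of 150 units was reached by 20, against 42.1% of names. In the Hoxb cluster 9 of 10 genes were detected and all 9 reached 150 units. In the Hoxa cluster 9 of 11 were detected, and in the Hoxc cluster 6 of 9. In the Hoxd cluster 8 of 9 genes were at the floor on both arrays and the remaining Hoxd8 measured 25.4 and 29.6 units. Hoxb13, the most posterior gene of its cluster, which is expressed in the hindgut and the prostate, measured 11714 and 9693 units. Of its paralogues, Hoxa13 (15 and 29.2) and Hoxd13 (15 and 15) were at or near the floor, and Hoxc13 (161 and 44.5) was detected on both arrays. Hoxb6 (8818 and 8240.3), Hoxb7 (7053 and 5925), Hoxb9 (7333 and 5234), Hoxc9 (5978 and 5019) and Hoxa7 (5699.8 and 5349.6) also reached 150 units. Hoxc13 differed between the arrays by 1.86 on the log2 scale (161 and 44.5), the largest difference in this list.

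**Figure D4:**
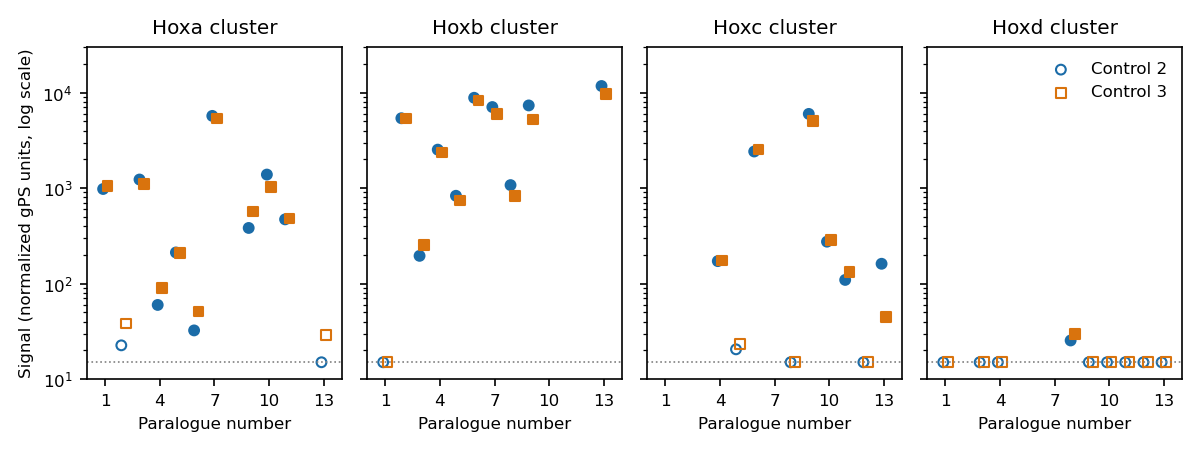
Signal of the genes of the 4 Hox clusters by paralogue number on the control arrays of replicate 2 (blue circles) and replicate 3 (orange squares), in normalized gPS units on a log scale, with filled symbols for genes well above background on both arrays. All detected Hoxb genes lie above 150 units, and 8 of 9 Hoxd genes lie on the dotted floor of 15 units.

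Genes of other lineages were measured to see what else the culture held or expressed. Of 27 mesenchymal genes, 13 were detected, or 48.1% against 55.9% of all gene names, and 11 reached 150 units, against 42.1% of names. By the flag for a positive and significant signal, 20 were detected. The intermediate filament gene Vim measured 11920.5 and 15108 units, fibronectin, Fn1, 31839.6 and 26591 units, and N-cadherin, Cdh2, 11674 and 9629.6 units. Sparc, a matrix protein, measured 30208 and 28306 units, and the factors Zeb1 (396 and 398), Snai2 (275 and 228), Twist1 (314 and 341) and Twist2 (475 and 502), which repress epithelial genes, were all detected. Of the list, 8 genes were at the floor on both arrays, namely Thy1, Pdgfra, Pdgfrb, Lum, Col3a1, Foxf1, Foxl1 and the muscle gene Des. Other genes of fibroblasts and smooth muscle were detected, with 4069.6 and 3731 units for S100a4, 821 and 983 units for Tagln, 55.2 and 44.7 units for Acta2 and 29.1 and 22.7 units for the collagen gene Col1a1. Col1a2 (20.3 and 34.3) and Dcn (21.1 and 22.9) were flagged on 1 array. The epithelial and mesenchymal genes were measured in the same RNA, and whether they came from the same cells was not tested.

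Ptprc, which encodes the leukocyte antigen CD45, was flagged on neither array (15 and 15.3), and the B-cell gene Cd79a, the macrophage gene Adgre1 and the myeloid lysozyme gene Lyz2 were at the floor. Of the 19 genes of the immune list, 9 were detected, or 47.4% against 55.9% of all gene names, and 6 reached 150 units. The endotoxin co-receptor Cd14 measured 4409 and 4633 units and Kit, the receptor of stem cell factor, 5913 and 4917 units. The receptor of colony-stimulating factor 1, Csf1r, measured 5737 and 4604 units on its brightest probe and 220.2 and 197.6 units and 179 and 189 units on its other 2 probes. The integrin gene Itgam measured 8370.2 and 5874 units on 1 probe, 24.5 and 24.1 units on the second and 16.6 and 30.3 units on the third. For the T-cell gene Cd4, 1 probe gave 908 and 781 units and the other the floor value on both arrays. The probes of Itgam and of Cd4 thus differed in detection. The remaining detected genes were Cd3e (174 and 185), Fcgr1 (148 and 170.1), Cd68 (46.1 and 48.1) and S100a8 (23.7 and 29.2).

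Of 10 endothelial genes, 4 were detected, or 40% against 55.9% of all gene names. With a signal above the 99th percentile of the negative controls as the rule, the count was 2. The receptor genes for vascular endothelial growth factor, Flt1 (3342 and 3082) and Kdr (761 and 955), reached 150 units. Pecam1 (36.6 and 27.4) and Esam (46.8 and 31.5) were detected under that level. Of the rest, Vwf was flagged on 1 array, and Cdh5, Tie1, Tek, Emcn and Erg were at the floor. Of 10 neural and glial genes, 7 were detected, or 70% against 55.9% of all gene names and 63.0% of those in the reference. The level of 150 units was reached by 3, against 42.1% of names. Snap25, a protein of vesicle fusion, measured 6055 and 4660.3 units, Uchl1 673 and 728 units and Tubb3 614 and 507 units, and Elavl4 (181 and 135), Elavl3 (36.3 and 29.3) and Sox10 (70.3 and 84.5) were also detected, while Gfap, S100b and Syt1 were at the floor.

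Keratins and factors of basal and squamous epithelia were detected for 7 of 10 genes, or 70% against 55.9% of all gene names. The level of 150 units was reached by 6, against 42.1% of names. Krt17 measured 19721 and 18878 units. Krt5, the partner of Krt14 in basal cells, measured 1366 and 1389 units on 1 probe and the floor value on the other, and Trp63, the basal cell factor p63, measured 1402 and 1646 units on 1 probe and the floor value on the other. Krt13 (1112 and 1242), Sfn (589.6 and 671), Krt15 (178 and 209.9) and Krt14 (101 and 85.2) were also detected, whereas the terminal squamous gene Ivl and the desmosomal gene Dsg3 were at the floor. Of 19 genes of stomach, lung, liver and kidney, 6 were detected, or 31.6% against 55.9% of all gene names. The count was 11 by the flag for a positive and significant signal and 2 by the 99th percentile of the negative controls. Foxj1, the factor of motile cilia, was the single one to reach 150 units and measured 2379.9 and 2154 units, and the other five were Gkn3 (87.6 and 86.5), Muc5ac (51.1 and 42.2), Apoh (40.3 and 53), Afp (41.3 and 41.3) and Nphs1 (26.9 and 25.2).

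Among 5 sex-linked genes, the Y-linked Eif2s3y (4188 and 4154) and Ddx3y (856 and 1120.1) were detected, Kdm5d was at the floor and Uty was flagged on neither array (20.3 and 17.1). Xist, the RNA of the inactive X chromosome, was at the floor on both arrays.

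The untreated cells expressed the receptors of all 3 types of IFN. All 16 genes for IFN receptors and their signalling were detected, and 15 reached 150 units. The chain that binds IFN-λ, Ifnlr1 (probe at chr4:135263946-135264005 on mm9), measured 3786 and 2990.4 units, and Il10rb, the chain it shares with the IL-10 family, 1355 and 1126 units. For the type I receptor, Ifnar1 measured 2301 and 1889.6 units and Ifnar2 2540.1 and 2358 units. For the type II receptor, Ifngr1 measured 29296 and 21698 units and Ifngr2 5436 and 5325 units. Between the arrays, the genes of this list differed by at most 0.43 on the log2 scale, a value reached by Ifngr1. The kinases Jak1 (4134 and 3443) and Tyk2 (375 and 463) and the factors Stat2 (2754 and 2201) and Irf9 (6476 and 6024) were detected as well. The feedback inhibitors Usp18 (4771 and 3541), Socs1 (1083 and 903) and Socs3 (7293 and 7078) were detected.

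Of 11 IFN genes on the array, 6 were detected, or 54.5%, near the 55.9% of all gene names, and none reached 150 units. The transcript of IFN-β, Ifnb1, measured 38.6 and 33.8 units. Ifnl3 measured 75.7 and 57.8 units on 1 probe and the floor value on the other, Ifna1 50.8 and 50 units and Ifna5 37.9 and 43.1 units, and Ifng, Ifne, Ifnk and Ifna4 were at the floor. Genes of the IFN-α family are near-identical and their probes may not tell them apart, and Ifnl2 was not measured under that name. By the stricter rule of a signal above the 99th percentile of the negative controls on both arrays, 1 of the 11 genes counted as detected.

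IFN-stimulated genes were measured without added IFN to give their basal level. All 58 genes of the list were detected, against 55.9% of all gene names, and 46 of them reached 150 units. Isg15, a ubiquitin-like modifier (probe at chr4:155573649-155573708 on mm9), measured 12969.7 and 10203 units. Bst2, or tetherin, which holds budding virus at the cell surface, measured 43743 and 39356 units and Ifitm3, which blocks virus fusion in endosomes, 3145 and 2548 units. The chemokine gene Cxcl10 measured 16952 and 13747 units and the factor Irf1 11870.2 and 10906 units. Ifit1, which binds viral RNA, measured 564 and 522 units, Irf7, which drives type I IFN genes, 524 and 548 units, and Rsad2, or viperin, 878 and 634 units. Mx2, the gene whose promoter drives the luciferase of this line, measured 362 and 261 units. A further 12 genes did not reach 150 units on both arrays, among them Mx1 (61.9 and 43.5), Oas2 (105 and 73.7), Oas3 (44.6 and 68.9), Gbp6 (79.4 and 65.2), Iigp1 (105 and 103), Ifitm1 (38.4 and 30.4) and Sp100 (33.1 and 38.7). Between the control arrays, the genes of this list differed by at most 0.63 on the log2 scale, a value reached by Oas3.

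The complex that holds Stat2 and Irf9 binds an element that holds GAAA repeats, and the promoters of 3 IFN-stimulated genes are shown because they carry such letters close to the start of a gene that was expressed at baseline. The motif searched was GAAA, any 2 bases and GAAA again, on either strand, in the 300 bases from 250 before to 50 after each start in RefSeq on GRCm38.p6. Capitals mark each match, and matches that overlap run together. The promoters are those of Isg15 (chr4:156200769-156201068, minus strand), Ifit1 (chr19:34640639-34640938, plus strand) and Bst2 (chr8:71537423-71537722, minus strand), each written along its gene.
Isg15: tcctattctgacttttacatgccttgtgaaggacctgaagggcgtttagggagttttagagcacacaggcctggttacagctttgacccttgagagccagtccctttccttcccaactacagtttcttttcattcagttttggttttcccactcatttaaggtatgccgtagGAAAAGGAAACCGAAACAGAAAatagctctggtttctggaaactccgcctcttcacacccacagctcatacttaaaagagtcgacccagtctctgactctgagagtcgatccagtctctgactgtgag
Ifit1: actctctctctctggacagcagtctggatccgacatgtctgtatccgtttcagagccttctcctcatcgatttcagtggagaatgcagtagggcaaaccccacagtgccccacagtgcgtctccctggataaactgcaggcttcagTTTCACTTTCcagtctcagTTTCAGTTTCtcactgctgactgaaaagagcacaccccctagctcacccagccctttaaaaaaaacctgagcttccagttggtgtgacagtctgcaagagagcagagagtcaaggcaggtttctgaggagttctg
Bst2: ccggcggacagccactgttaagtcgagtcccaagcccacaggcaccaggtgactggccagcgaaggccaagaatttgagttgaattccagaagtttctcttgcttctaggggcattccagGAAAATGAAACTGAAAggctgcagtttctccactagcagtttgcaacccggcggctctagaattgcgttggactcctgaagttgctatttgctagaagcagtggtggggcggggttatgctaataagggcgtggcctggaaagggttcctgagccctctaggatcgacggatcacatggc
In Isg15, 3 overlapping matches run from 78 to 57 bases before the start. In Ifit1, the matches lie on the opposite strand, from 104 to 95 and from 85 to 76 bases before the start. In Bst2, 2 overlapping matches run from 130 to 115 bases before the start. Of the 45 genes of the list with an entry in the promoter table, 21 held a match, or 46.7%, against 3.99% of the 27025 genes in that table. Other lists are shown for comparison, with a match in 3 of 13 genes of the MHC class I pathway, 6 of 11 IFN genes, 1 of 16 genes of the epithelial core, 0 of 23 junction genes and 0 of 11 housekeeping genes. Irf7 and Irf9 were among the 24 IFN-stimulated genes with an entry and no match to these letters.

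Genes for antigen presentation by MHC class I were detected throughout, with 15 of 15 genes detected and all 15 at 150 units or more. The heavy chain H2-K1 measured 61401 and 55594 units and the light chain B2m 13265 and 11716 units. Tap1, which pumps peptides into the endoplasmic reticulum, measured 484 and 586 units, the immunoproteasome subunit Psmb8 2449 and 2481 units, and Nlrc5, the activator of class I genes, 1555 and 1189 units. Class I heavy chains are alike in sequence, and H2-K1 and its relatives may share signal. For MHC class II, 7 of 10 genes were detected, or 70% against 55.9% of all gene names. The level of 150 units was reached by 4, against 42.1% of names. The peptide-binding chains H2-Aa and H2-Ab1 were at the floor on both arrays and H2-Eb1 measured 95 and 79.6 units, whereas the chaperone gene H2-DMb1 measured 1536 and 1569.8 units, the invariant chain Cd74 165 and 148 units and the activator Ciita 82.3 and 57.6 units. The inhibitory ligand Cd274, or PD-L1, measured 215 and 216 units.

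Sensors of nucleic acids and adaptors of innate sensing were detected for 23 of 25 genes, and 18 reached 150 units. Some of these adaptors, such as Myd88, serve Toll-like receptors. The RNA helicases Ddx58, or RIG-I (2954 and 2391), and Ifih1, or MDA5 (1633 and 1065), and their adaptor Mavs (2826 and 2758) were detected, and Dhx58, their regulator LGP2, measured 153 and 114 units. The second probe of Ifih1 was flagged on neither array. The DNA sensor Cgas measured 9256 and 8385 units and its partner Sting1 2914 and 2715 units. Aim2, which starts an inflammasome on DNA, and Ticam2, an adaptor of Toll-like receptors, were at the floor on both arrays.

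Receptors for microbial patterns were detected for 14 of 25 genes, or 56.0%, and 11 reached 150 units. The share detected was close to the 55.9% of all gene names and under the 63.0% of those in the reference. Tlr2, a receptor of bacterial lipoproteins, measured 1760.2 and 1413 units. Tlr4, which senses endotoxin, measured 1902 and 1640.3 units and its partner Ly96 4104 and 3237 units. Tlr9, a receptor of DNA, measured 747 and 698 units and Tlr3, a receptor of double-stranded RNA, 179.8 and 154 units. The flagellin receptor Tlr5 gave 72.8 and 86.5 units. Of the cytosolic sensors of peptidoglycan, Nod1 measured 888 and 887 units and Nod2 28.9 and 34.9 units. Naip5 measured 19771 and 21533 units while its partner Nlrc4, with which it forms the flagellin inflammasome, was at the floor. Genes of the Naip family are near-identical, and the value of Naip5 is uncertain for that reason. Nlrp6, an inflammasome gene of the gut epithelium, measured 20 and 22 units and was well above background on 1 array, and Nlrp3, Tlr1, Tlr6 and Tlr11 were at the floor.

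Receptors for cytokines and growth factors were detected for 27 of 31 genes, or 87.1% against 55.9% of all gene names, and 22 reached 150 units. The receptor for epidermal growth factor, Egfr, measured 9227 and 8316 units, the IL-1 receptor Il1r1 3559 and 3441 units and the receptor for tumour necrosis factor, Tnfrsf1a, 11582 and 10925 units. Il17rc, a chain of the IL-17 receptor, measured 38747 and 35193 units. Il22ra1, the chain specific to the IL-22 receptor, measured 21.7 and 28.9 units and was well above background on the array of replicate 3 alone, and the IL-10 receptor chain Il10ra was at the floor. Pigr, the receptor that carries immunoglobulin A across the epithelium, was counted as detected through a probe of 6987 and 6729 units that the array files place on chromosome 14, whereas the reference puts the gene on chromosome 1 and the probe on chromosome 1 was at the floor on both arrays. Without Pigr the count of detected genes is 26.

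Of 25 chemokine and cytokine genes, 19 were detected, or 76% against 55.9% of all gene names. The level of 150 units was reached by 11, against 42.1% of names. Cxcl1, which attracts neutrophils, measured 5079 and 6231 units, Ccl2, which attracts monocytes, 4858 and 4952 units and Ccl5, which attracts T cells, 2332 and 1930.2 units. Ccl25, the chemokine of the small intestine, measured 6958 and 6188 units and the growth factor gene Csf1 14468 and 11855 units, and Ccl20, Il1a, Il1b and Il6 were at the floor. Of 18 genes of epithelial defence, 12 were detected, or 66.7% against 55.9% of all gene names. Without Pigr the count is 11. The level of 150 units was reached by 8, with Pigr among them, against 42.1% of names. The siderophore binder Lcn2 measured 44442 and 38967 units and the protease inhibitor Wfdc2 56685 and 49426 units. The membrane mucin gene Muc20 measured 4669 and 4099 units and the intestinal membrane mucin genes Muc13 and Muc3 50.5 and 42.7 units and 56.1 and 56.2 units, and Duox2, Duoxa2, Defb1, Reg3a and Saa3 were at the floor.

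Transporters of ions and water were detected for 18 of 27 genes, or 66.7% against 55.9% of all gene names. The level of 150 units was reached by 14, against 42.1% of names. The basolateral chloride importer Slc12a2 measured 7775 and 7489 units. Some apical channels and exchangers of gut epithelium were at the floor on both arrays. Among these were the chloride channel gene Cftr, the exchanger genes Slc9a3 (sodium-proton) and Slc26a3 (chloride-bicarbonate), and the sodium channel subunits Scnn1b and Scnn1g. The third subunit of the sodium channel, Scnn1a, measured 619 and 611 units. Slc26a6, an exchanger of the same family as Slc26a3, was detected on all 3 of its probes and measured 895 and 709 units on the brightest. The calcium-activated chloride channel Ano1 measured 1710.3 and 2070.4 units, the water channels Aqp1 3197 and 3764 units and Aqp3 96.6 and 82.6 units, and the carbonic anhydrase gene Car2 5045 and 6449 units.

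Nutrient transporters were detected for 21 of 28 genes, or 75% against 55.9% of all gene names. The level of 150 units was reached by 14, against 42.1% of names. Slc2a1, the general glucose transporter GLUT1, measured 18241 and 14279.8 units, while Slc5a1, the sodium-glucose transporter of the brush border, was at the floor and the enterocyte transporters Slc2a2 (58 and 64.8) and Slc2a5 (32.8 and 24.5) were under 150 units. The peptide transporter Slc15a1 measured 28.6 and 15 units and was flagged on 1 array. The amino acid transporter subunit Slc3a2 measured 54089.8 and 52021 units and the lactate exporter gene Slc16a3 8054 and 8033 units. The iron importer Slc11a2 measured 989 and 961 units and the iron exporter Slc40a1, or ferroportin, 879 and 825 units.

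For lipids, bile acids and drug efflux, 10 of 19 genes were detected, or 52.6%, and 9 reached 150 units. The share detected was near the 55.9% of all gene names and under the 63.0% of those in the reference. The bile acid transporter genes Slc10a2, Slc51a and Slc51b, the bile acid binder Fabp6 and the cholesterol transporter genes Npc1l1, Abcg5 and Abcg8 were at the floor on both arrays. Signals of efflux pumps were 5896 and 5755 units for Abcb1b, 1865 and 1691 units for Abcg2 and 7198 and 6109 units for Abcc4. Abcb1a measured 531 and 1899 units, a difference of 1.84 on the log2 scale between the control arrays, so that its level is uncertain, while its near copy Abcb1b did not show such a difference.

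Genes of the cell cycle were detected for 23 of 24 genes after 21 days on the inserts, and all 23 reached 150 units. Mki67, a marker of cycling cells, measured 15502 and 14784 units, Ccnd1, or cyclin D1, 3873 and 4403 units, Top2a 5999.6 and 7568 units and the replication helicase subunit Mcm6 104682 and 97458 units. The single exception, Aurkb, was at the floor. All 10 inhibitors of the cycle were detected too. Cdkn1a, which encodes p21, measured 17565 and 20198 units, Cdkn2a, which encodes p16 and p19, 67925 and 69375 units, and Trp53 1294 and 1262 units.

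How far the basal level of IFN genes lies below the induced one was read against the stimulated arrays with limma, fitted to all 8 arrays with Benjamini-Hochberg adjustment over 26007 probes. A gene was called at an adjusted p under 0.05 and a change of at least 2-fold. IFN-λ2 raised 55 of the 58 IFN-stimulated genes and IFN-β 54 of them, against 2.74% and 0.882% of the 20739 gene names tested, and these 54 were higher after both. The median log2 change over the list was 2.85 for IFN-λ2 and 2.71 for IFN-β, and over all gene names tested 0.0049 and 0.023. The list consists of genes known for this response, so the count is a description of the distance from baseline. Isg15 rose to 153336, 166143 and 145051 units on the IFN-λ2 arrays and to 148803, 153558 and 140251 units on the IFN-β arrays, a log2 change of 3.75 ± 0.12 (SE, adjusted p = 5.00e-06) and 3.68 ± 0.12 (adjusted p = 7.52e-06) by limma. Oas2 rose to 9041, 8595 and 7946 units with IFN-λ2 and to 3306, 3258 and 3268 units with IFN-β, a log2 change of 6.60 ± 0.14 (SE, adjusted p = 1.70e-06) and 5.22 ± 0.14 (adjusted p = 5.44e-06) by limma. No stimulated array overlapped with a control array for either gene. Ifitm1, Ifitm2 and Samhd1 were not called with either IFN and Irf1 was not called with IFN-β, where its log2 change of 0.86 ± 0.08 (SE) was under 2-fold.

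**Figure D5:**
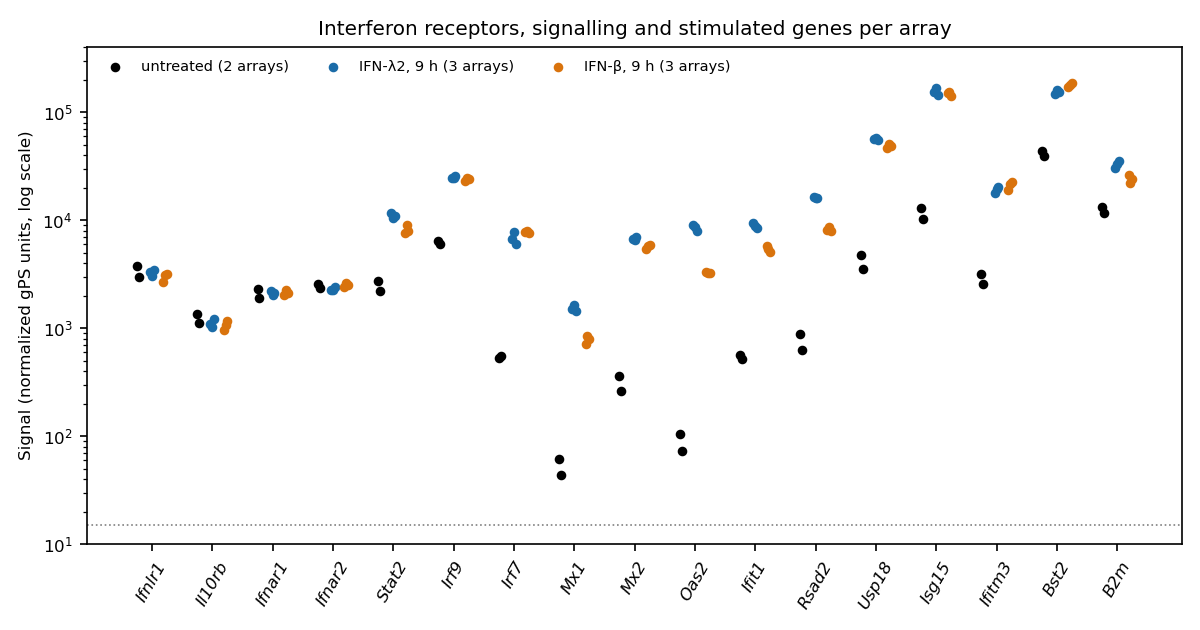
Signal of IFN receptor chains, signalling factors and IFN-stimulated genes on each of the 8 arrays, in normalized gPS units on a log scale, for untreated cells (black), IFN-λ2 (blue) and IFN-β (orange). The points of the 4 receptor chains on the left lie together in all groups, and for the genes from Stat2 to B2m every control point lies below every stimulated point.

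The chains of the type I and type III receptors were not called in either comparison, and 0 of these 4 chains had an unadjusted p under 0.05 by limma. Ifnlr1 measured 3329, 3057 and 3453 units with IFN-λ2 and 2676, 3099 and 3151 units with IFN-β, a log2 difference from untreated cells of -0.04 ± 0.13 (SE, adjusted p = 0.864) and -0.18 ± 0.13 (adjusted p = 0.639) by limma, so that the groups overlapped. Within the list of receptors and signalling genes, Stat2, Irf9, Socs1 and Usp18 were among the genes called higher with each IFN. Of the 24 genes of the epithelial core none was called by limma with either IFN. Without the demand of a 2-fold change, an adjusted p under 0.05 was reached by 10 of them for IFN-λ2 and by 0 for IFN-β, against 18.7% and 1.64% of all gene names tested. An unadjusted p under 0.05 was reached by 17 and 5 of the 24, against 33.4% and 11.9% of names. With IFN-λ2, where 2.74% of all gene names were called higher and 1.2% lower, 3 genes detected at baseline are given as examples of those called. Hnf4a fell from 185 and 141 units to 31, 23 and 25.8 units (log2 change -2.61 ± 0.16, SE, adjusted p = 1.01e-04 by limma), and the array at 23 units was not well above background, so the size of this fall is uncertain. Mmp7 rose to 4498, 6484 and 4827 units (3.60 ± 0.20, adjusted p = 6.06e-05 by limma) and Scnn1a to 4902, 4391 and 3740.1 units (2.81 ± 0.14, adjusted p = 3.72e-05 by limma). With IFN-β, where 0.882% of names were called higher and 0.0338% lower, none of these 3 genes was called. Mmp7 was at 423, 421 and 402 units on the IFN-β arrays. The count of probes called lower with IFN-β, 8, rests on both control arrays, since it was 82 without control replicate 2 and 77 without control replicate 3. With the replicate number, and so the slide, as a block it was 4. The test of the difference between both IFNs was not made here.

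The arrays of each replicate number shared a slide, so that a difference between the control arrays cannot be told apart from a difference between slides. Slide 3 was compared with slide 2 over all 3 groups by limma. No probe of 26007 was called (0.0%), with 1852 at an unadjusted p under 0.05 and a lowest adjusted p of 0.0994. Without IFN-β replicate 2, 3 probes were called lower on slide 3. Of the 219 probes that differed by at least 2-fold between the control arrays, 132 could be measured on the IFN-λ2 arrays of the same slides and 42 of these differed in the same direction there, and on the IFN-β arrays 67 of 153 did. The largest differences were one-sided. At 4-fold or more, 26 probes were higher on the array of replicate 2 and 11 on that of replicate 3, and at 8-fold or more the counts were 10 and 0.

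The 10 largest differences belonged to probes of Slc4a7, Angpt4, Ccr6, LOC100047330, Olfr449, Rhox1, Kcnt1, Gm6553, Atf7 and Trp73. The bicarbonate transporter gene Slc4a7 measured 4920.5 and 197 units on this probe, whereas its second probe gave 2491 and 2373 units. The chemokine receptor gene Ccr6 measured 359 and 20.8 units, and Trp73, a relative of Trp53, 541 and 65.8 units. Of the 10 probes, all had at most 540.97 units except that of Slc4a7, and the probe of Angpt4 was placed by the array files on chromosome 14 although the reference puts the gene on chromosome 2. A signal that was present on 1 control array alone is given here as a value of that array and not of the untreated cells.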

How the data were processed

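Total RNA of IEC10 cells was labelled with Cy3 and hybridized to 1-color Agilent whole mouse genome arrays. Per the labels, RNA was isolated with Trizol, whereas the methods of the study name the RNeasy Mini Kit. The authors extracted the scanned images with Agilent Feature Extraction 10.7.3.1 and deposited the background-subtracted intensity of every feature in arbitrary units, together with other columns, such as flags for signals well above background. They also deposited a table of scaled intensities, which equalled the values computed here times a factor of 0.909 to 0.928 per array for probes above the floor with a single feature. The deposited text of the scanner files gives positions on mm9.

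Following the methods, 313 to 424 features per array were removed as marked outliers, as deviating from on-chip copies by over 1.42 interquartile ranges, or for a pixel coefficient of variation above 0.5. Probe values are geometric means, brought to a 75th percentile of 1500, with 15 as the floor. No probe was saturated. Genes were named through GRCm38.p6: 26412 probes by accession, 3854 by symbol, 735 by synonym, 18 by another accession, and 8410 kept the name of the array design. Where several probes measured a gene, values are those of the probe brightest on the control arrays by mean log2. Of 160 list genes with several probes, 30 had probes that differed in detection, and 3 of 858 probes were placed on another chromosome than the gene.

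The 35 gene lists and the members were chosen with earlier results of these data known. Genes are named for their role, or as members of the lists of other cell types that were detected on both control arrays, or among the 10 largest differences between these arrays. Some further list members are named as examples, chosen after their values were seen, as was the level of 150 units. Values of a few list members are not reported here, while the counts of their lists include them. Arrays were grouped by their labels. The comparisons used limma 3.58.1 (R 4.3.3), with all 8 arrays in 1 fit and the 26007 probes above the floor on at least 2 of them. Tested on simulated data of 26007 probes, in which 200 were given a log2 shift of 2, the fit recovered 188 for IFN-λ2, 187 for IFN-β and 187 for the slides, with 7, 14 and 16 false calls. A call in this simulation needed an adjusted p under 0.05 at any fold, unlike the calls reported above. The simulated arrays were drawn independently, so a correlation between arrays of 1 slide was not covered. As a check of pairing, deviations from group means were correlated between arrays of the same number. The correlations lay between -0.051 and 0.1 for the 4 pairs of a control and an IFN array and between 0.183 and 0.316 for the 3 pairs of an IFN-λ2 and an IFN-β array. The main fit has no block, and a fit with the replicate number, which marks the slide, as a block was an alternative. Python 3.11.15 with matplotlib 3.10.9, numpy 2.4.6 and pandas 2.3.3 made the tables and figures.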

Additional observations from a re-analysis of the deposited data

Results flagged for a closer look

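The probe of Slc4a7 was singled out because the arrays of slides 2 and 3 differed in opposite directions between groups. Its log2 difference of replicate 3 minus replicate 2 was -4.64 on the control arrays, where it measured 4920.5 and 197 units, but 3.55 on the IFN-λ2 arrays and 1.15 on the IFN-β arrays. This difference between groups was not tested. The second probe of the gene gave 2491 and 2373 units on the control arrays, 2243, 1937 and 2189.8 units on the IFN-λ2 arrays and 2186, 2313 and 2325 units on the IFN-β arrays, in the order of their replicate numbers.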

How the results depend on the processing

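Of 236 recomputed counts, each under 1 alternative, 216 stayed within 1.5 times the value reported. With a signal that is positive and significant in place of the flag for well above background, the count rose to 17 of 22 intestinal transcription factors, 5 of 11 goblet, 7 of 17 enteroendocrine, 7 of 11 tuft, 20 of 27 mesenchymal and 11 of 19 stomach, lung, liver and kidney genes. With a signal above the 99th percentile of the negative controls it fell to 1 of 10 Paneth, 2 of 11 tuft, 2 of 10 endothelial, 2 of 19 stomach, lung, liver and kidney and 1 of 11 IFN genes. Detection on at least 1 control array, or a signal above the floor on both, gave 3 of 17 enteroendocrine genes. Using a single control array, that list ranged from 1 to 3, and 22735 to 23785 probes were detected against 22306 on both. The 30 genes whose probes differ in detection count as detected through their brighter probe. No list moved by over 1.5 times when only the brightest probe was used. That setting keeps the brighter probe of these 30 genes, so it cannot test their detection.

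In limma, IFN-λ2 raised 693 probes and lowered 305, and IFN-β raised 229 and lowered 8. The lowered probes fell to 72 and 1 with normexp background correction and to 199 and 2 with a floor of 50, and those of IFN-β to 2 with all non-control probes and 3 with only the groups compared. Leaving out each array, the lowered probes ranged from 244 to 426 with IFN-λ2 and from 2 to 82 with IFN-β (82 without control replicate 2 and 77 without control replicate 3), and probes lower on slide 3 than on slide 2 from 0 to 3. With the replicate number as a block, IFN-β lowered 4 probes, and the other counts stayed within 1.5 times. The causes were not tested. For 112 named genes, the mean control signal in the authors' deposited table was 0.915 to 1 times the value computed here, and with normexp it was 0.813 to 4.66 times that value, with a median of 1.08.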
